A study of Bos taurus with 10 samples.

Results

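The end of bovine chromosome 29 that is known for the imprinted genes IGF2, H19, KCNQ1 and CDKN1C was described across 10 tissues. Its members were all cytosines with at least 8 reads in a library between positions 49000000 and 51600000 of chromosome 29 in UMD3.1, the cattle assembly to which the reads had been mapped. Of 1868049 cytosines covered in the series, 18106 lay in this window, of which 4387 were CG, 5456 CHG and 8263 CHH. Covered positions ran from 49022920 to 51502609, which was also the last covered position of the chromosome.

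Methylation had been measured by reduced representation bisulphite sequencing (RRBS) in 1 library from each of 10 tissues of the Hereford cow L1 Dominette 01449 and relatives. In RRBS, DNA is cut at CCGG by MspI, short fragments are treated with bisulphite, and the share of reads that still show a cytosine is its methylation level. Adult females gave skeletal muscle, uterus, nucleated blood cells and lactating mammary gland (d 90), and an adult male gave testis. Juvenile females gave frontal cortex, ileum, abomasum and mammary gland parenchyma, and a male fetus at d 180 gave rumen. Which animal gave which tissue was not given in the sources used here. Tissue, stage, sex and animal therefore cannot be told apart, and each tissue is a mixture of cell types. There were no replicates, so a test on the reads compares libraries, and intervals cover counting error only. PCR copies could not be removed, so reads may not be independent, and intervals and tests may understate that error.

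At an imprinted gene only the copy from one parent is used. The choice is kept by stretches of DNA that carry methylation on the maternal or the paternal copy, so that body cells measured in bulk show an intermediate level there, and the mark is erased and laid down anew in germ cells. IGF2 encodes a fetal growth factor and H19 a noncoding RNA from the other parental copy, while KCNQ1, a potassium channel gene, hosts the region that governs CDKN1C, an inhibitor of the cell cycle. Gene names could not be set beside single cytosines, because no UMD3.1 annotation was used here. In the newer assembly ARS-UCD2.0, 26 of 27 genes looked up for this domain were listed on chromosome 29, with neighbours in the order PHLDA2, SLC22A18, CDKN1C, KCNQ1, then TH, INS, IGF2, H19. KCNQ1OT1 was not matched.

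The deposited files give 5 bases around each cytosine, and these overlapped into 40539 bases of the window without conflicting letters, 1.56 % of its length. The levels below therefore describe scattered short stretches. Stretches that carry the results are printed from the files, on the forward strand of UMD3.1, with CG dinucleotides in capitals. The first 5 varied most among the tissues other than testis, the next had testis lowest by the widest margin, and the last of these 8 hold cytosines at which testis left the range of the other tissues. Numbers of clusters count from the start of the window.
Cluster 8, chr29:49419908-49419955: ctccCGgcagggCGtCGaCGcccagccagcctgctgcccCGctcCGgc
Cluster 9, chr29:49453087-49453135: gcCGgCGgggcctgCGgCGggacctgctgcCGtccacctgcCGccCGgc
Cluster 10, chr29:49471993-49472043: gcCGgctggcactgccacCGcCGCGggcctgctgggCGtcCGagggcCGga
Cluster 11, chr29:49726307-49726357: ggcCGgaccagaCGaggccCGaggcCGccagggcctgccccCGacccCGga
Cluster 41, chr29:51406567-51406619: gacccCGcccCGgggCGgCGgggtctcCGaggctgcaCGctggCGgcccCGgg
Cluster 28, chr29:51016848-51016899: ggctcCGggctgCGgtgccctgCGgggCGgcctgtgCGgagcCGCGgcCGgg
Segment with lower testis, chr29:50543135-50543186: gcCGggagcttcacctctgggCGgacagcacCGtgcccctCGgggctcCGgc
Single site with lowest testis, chr29:49679508-49679541: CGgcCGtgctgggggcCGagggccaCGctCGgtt
For comparison, the clusters with the highest and the lowest mean level were printed too.
Cluster 17, chr29:50487768-50487819: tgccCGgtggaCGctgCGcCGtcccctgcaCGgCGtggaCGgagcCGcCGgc
Cluster 40, chr29:51357862-51357908: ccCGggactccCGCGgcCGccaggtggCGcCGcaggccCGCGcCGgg
Each of these stretches except the single site held 2 CCGG sites, the cut site of MspI, near its ends.

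The number of CG cytosines covered in the window ranged from 1103 in ileum to 2033 in testis. Their median coverage was 9 reads in abomasum, 16 in testis and between 20 and 31 in the other tissues. Abomasum and testis also stood apart in what they covered. Of the 4387 CG cytosines, 1318 were covered in abomasum and no other tissue and 1086 in testis and no other tissue, while 1193 were covered in at least 7 tissues and 432 in all 10. The main differences and the counts of clusters and of all DMCs are given with and without abomasum below.

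The CG methylation level of the window was higher than that of the rest of the autosomes in every tissue. Without weighting by reads, it was 49.1 % ± 3.31 (SD, n = 10 tissues) in the window and 32.7 % ± 2.82 elsewhere. By tissue, it was 45 % in mammary gland parenchyma, 45.7 % in skeletal muscle, 46.0 % in rumen, 47.2 % in lactating mammary gland, 47.6 % in ileum, 49.5 % in uterus, 50.3 % in testis, 51.1 % in frontal cortex, 54.0 % in abomasum and 54.1 % in blood cells. These levels rest on the CG cytosines covered in each tissue, which differ between tissues, so their order depends on coverage too. Every one of the 10 tissues showed the higher level in the window, by 16.3 ± 2.42 points (exact sign-flip permutation test over tissues, two-sided, p = 0.00195, adjusted p = 0.00586 over 3 tests, and 0.00195 is the smallest p this design allows). Here and below, this test measures agreement of tissues at this single window, not a difference from other regions of its size.

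The size of this difference depended on what the window was compared with. The last 2.6 Mb of the 28 other autosomes, the same distance from a chromosome's end, had a mean CG level of 51.9 % ± 3.02, and the window lay 2.80 ± 1.20 points below it, being lower in 10 of 10 tissues (p = 0.00195, exact sign-flip test). Single chromosome ends ranged from 24.0 to 67.0 % with a median of 50.8 %, and the window took place 21 of 29. Against the rest of chromosome 29 the difference was 7.42 points. Weighted by reads it was 2.05 points against the other autosomes (p = 0.135, exact sign-flip test), and at the 432 cytosines covered in every tissue the levels were 34.7 % ± 2.81 and 28.2 % ± 2.03, a difference of 6.50 points. At these 432 cytosines the window level ran from 30.1 % in mammary gland parenchyma to 38.6 % in blood cells. Abomasum was at 34.9 % there, near the mean.

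**Figure D1:**
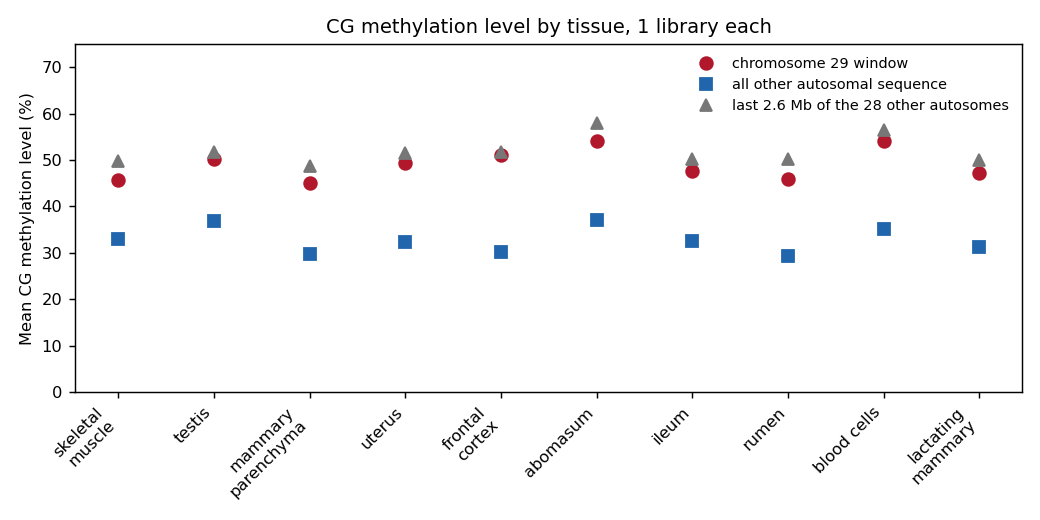
Mean CG methylation level (%) by tissue (1 library each) in the chromosome 29 window (circles), all other autosomal sequence (squares) and the last 2.6 Mb of the other autosomes (triangles). In every tissue the window lay above the other autosomal sequence, by 12.8 to 20.9 points, and below the mean of the other chromosome ends.

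The CG cytosines of the window were mostly either low or high. A share of 40.9 % ± 3.78 was below 20 % and 38.3 % ± 4.55 was above 80 %, compared with 59.8 % ± 4.57 and 23.6 % ± 2.08 elsewhere on the autosomes. Blood cells had the largest share above 80 %, 48.6 %, and mammary gland parenchyma the smallest, 32.4 %. The levels also differed along the window. At the cytosines covered in every tissue, the mean level was 57.5 % ± 5.53 up to position 49650000 (91 cytosines), 31.4 % ± 5.22 from there to 50300000 (52 cytosines), 25.7 % ± 1.23 to 50950000 (123 cytosines) and 29.8 % ± 2.73 to the end (166 cytosines). Over all covered CG cytosines, which differ between tissues, the same stretches were at 54.5, 57.6, 42.9 and 44.6 %, and the second was not lower than the first.

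An intermediate level in many tissues was looked for at each CG cytosine and along runs of neighbours. In a single tissue, 12.1 % ± 3.11 of the CG cytosines of the window were at 30 to 70 %, compared with 9.43 % ± 3.1 elsewhere on the autosomes. By tissue, the share in the window was 6.98 % in blood cells, 8.98 % in ileum, 9.49 % in frontal cortex, 10.6 % in rumen, 12.3 % in uterus, 12.7 % in lactating mammary gland, 13.0 % in mammary gland parenchyma, 15.1 % in skeletal muscle, 15.4 % in testis and 16.7 % in abomasum. The highest shares came with the lowest median coverage, 20 reads in skeletal muscle, 16 in testis and 9 in abomasum. Blood cells and ileum had 30 and 31 reads, although uterus had 30 as well. The part of depth in these shares was not tested. The window exceeded the other autosomes by 2.70 ± 2.24 points, in all tissues but testis (exact sign-flip permutation test, p = 0.00977, adjusted p = 0.0146). At the cytosines covered in every tissue it was 0.952 points (p = 0.262, exact sign-flip test), and against the rest of chromosome 29 the window had the lower share, by 2.82 points (p = 0.00391, exact sign-flip test).

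No run of intermediate cytosines was found in the window. A cytosine was called intermediate if it was covered in at least 7 tissues and at 30 to 70 % in at least 7 of them, and a run was at least 5 such cytosines in a row, at most 200 bp apart. Across the genome, 2.49 % of 118787 CG cytosines were intermediate and formed 25 runs, of which the longest held 25 cytosines on chromosome 9. In the window 18 of 1193 were intermediate, 1.51 %, below the share across the genome, and they formed no run of 3 or more. The count stayed at 0 when the range was widened to 25 to 75 %, when 20 reads were required and when the reads of both strands were pooled. Runs were rare across the genome too, 25 by this rule and 154 of 3 or more cytosines. A count of 0 among 1193 cytosines therefore does not set the window apart from other sequence. Since 1.56 % of the window was read, this says nothing of stretches between the covered ones, and whether the known control regions of H19 and KCNQ1 lie among the covered bases was not analysed here.

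**Figure D2:**
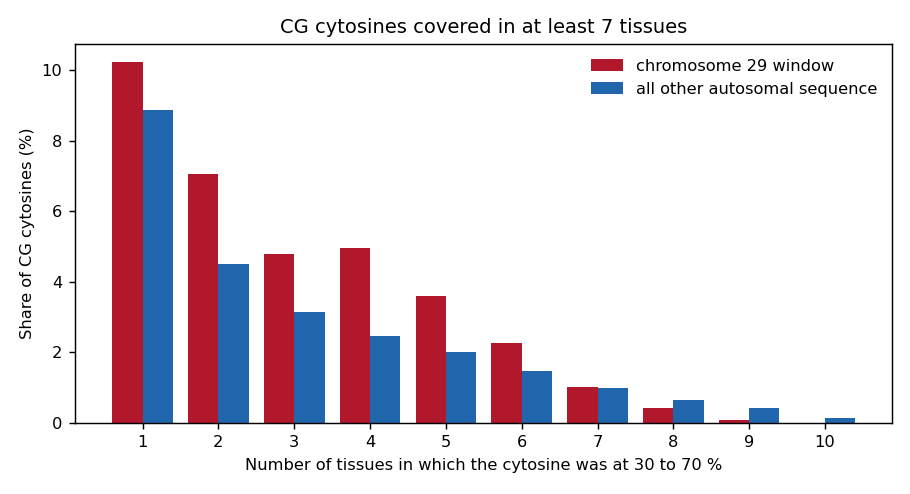
Share (%) of the CG cytosines covered in at least 7 tissues by the number of tissues in which they were at 30 to 70 %, in the chromosome 29 window (red) and all other autosomal sequence (blue), where cytosines at 0 tissues (65.6 % and 75.3 %) are not drawn. The window had the higher share from 1 to 6 tissues and the lower share at 8 tissues or more.

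The 18 intermediate cytosines were scattered. The cytosine at position 50359426 on the forward strand was intermediate in all 9 tissues that covered it. Its level was 30 % in testis and in rumen, 46.2 % in lactating mammary gland, 47.4 % in skeletal muscle, 50 % in blood cells, 54.5 % in uterus, 58.3 % in mammary gland parenchyma and in frontal cortex, and 66.7 % in ileum, at 10 to 38 reads. The other strand of this CG was intermediate too, although its levels spread from 22.2 to 81.2 %. The nearest covered CG cytosine before it, 8 bp away, had a mean level of 88.0 %, and the next one after the pair, 9 bp away, a mean of 55.1 %, so that the level changed on one side only.

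Another intermediate cytosine, at position 49679534 on the reverse strand, differed from its neighbours on both sides. It was at 55.2 % in skeletal muscle, 51.5 % in mammary gland parenchyma, 37.5 % in uterus, 50 % in frontal cortex, 57.8 % in ileum, 50 % in rumen and 52.4 % in blood cells, all at 28 to 45 reads. Testis had 1 methylated read of 27, which is 3.70 % (95 % Wilson interval 0.657 to 18.3 %), and lactating mammary gland had 33 of 33, which is 100 % (89.6 to 100 %). The levels thus fell into a low testis, a high lactating gland and 7 tissues near the middle. The neighbours 9 bp before and 4 bp after it had mean levels of 83.6 and 86.4 %. Genotype was not analysed here.

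The cytosines covered in every tissue formed 42 clusters of at least 5 CG cytosines at most 200 bp apart, which held 385 of the 432 cytosines and had a median length of 40 bp. Of these, 18 clusters were below 20 % in every tissue, 6 were above 80 % in every tissue and 18 were neither. Neighbouring cytosines of a cluster share reads and are not independent. Without abomasum, 805 CG cytosines were covered in every tissue and 70 clusters were formed, of which 27 were below 20 %, 10 above 80 % and 33 neither. Short stable and variable stretches alternated along the window.

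**Figure D3:**
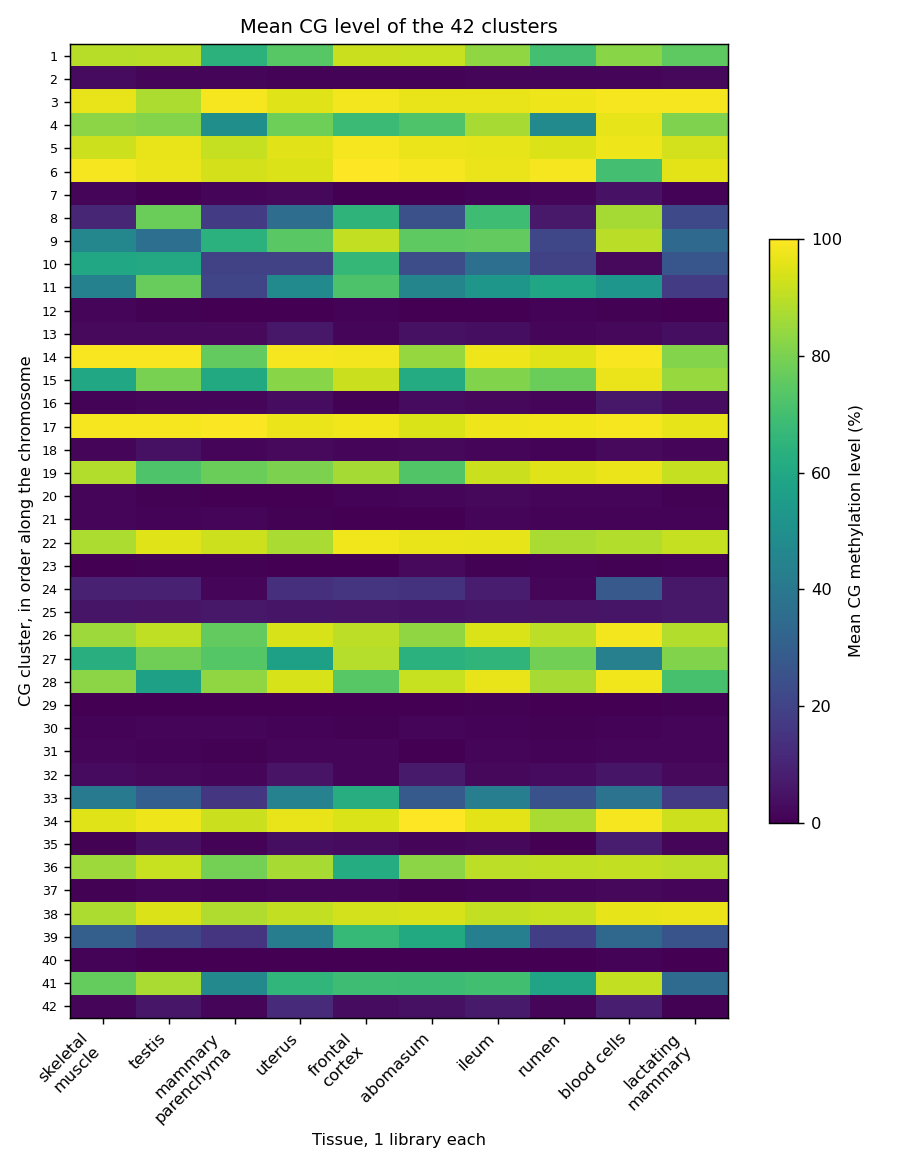
Mean CG methylation level (%, colour) of the 42 CG clusters in order along the chromosome (rows) in the 10 tissues (columns, 1 library each). Rows of uniform dark or bright colour are the 24 clusters that were below 20 % or above 80 % in every tissue, and clusters 8 to 11 form the longest row of neighbouring variable clusters.

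In the low clusters the tissues were alike. Their levels ran from 0 to 12.3 %, and the range over the 10 tissues had a median of 2.09 points. Cluster 40 was lowest, with levels from 0 to 0.866 %. The clusters above 80 % had levels from 87.1 to 100 %, and cluster 17 was highest, from 94.5 % in abomasum to 99.5 % in mammary gland parenchyma. Low clusters were denser in CG. They held a median of 19.6 CG dinucleotides per 100 bp, compared with 11.5 in the high and 13.8 in the remaining clusters. Over the 32 clusters with complete sequence, mean level and CG density had a Pearson's r of -0.64 and a Spearman's rho of -0.64, given as a description because coverage in RRBS itself depends on sequence.

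One cytosine stood against its low cluster. Cluster 25, at 50849394 to 50849438, held 20 CG cytosines, and its first cytosine, 50849394 on the forward strand, was at 85.7 % in abomasum and at 98.1 to 100 % in the other 9 tissues. The CG cytosine at 50849400 on that strand was at 0 to 13.0 %, and the remaining 18 cytosines of the cluster were at 8.33 % or less in every tissue. A CHH cytosine between these positions, 50849398, was at 85.7 to 100 % as well. It lay 1 base before a CCGG, the cut site of MspI, and the high CG cytosine lay just before it on the same strand. High non-CG cytosines close before a CCGG are described below. Whether the cut site bears on the level of this CG cytosine was not tested.

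Differentially methylated cytosines (DMCs) were those whose reads differed between at least 1 of the 45 pairs of libraries, by Fisher's exact test with an adjusted p below 0.01 and by 25 points or more. By this rule 19.8 % of the CG cytosines covered in every tissue were DMCs across the genome, and 99 of 432, or 22.9 %, in the window, a share near that background. Of the 99, 87 lay in the 18 variable clusters, 2 in the clusters above 80 % and 0 in those below 20 %. This split follows largely from how the clusters were sorted, since a DMC needs 25 points between tissues. Of the 18 variable clusters, 12 had a range of 30 points or more over the tissues, and without abomasum 21 clusters did. The highest level was found in blood cells in 9 of the 18 and in frontal cortex in 7, and the lowest in mammary gland parenchyma in 5 and in rumen in 4. The pair with the most called cytosines was blood cells against lactating mammary gland, with 42 of 432 (9.72 %), of which blood cells were higher at 39, compared with 3.56 % across the genome in both directions. Blood cells were also higher than mammary gland parenchyma at 38 and lower at 1 (9.03 %, against 2.75 %), and frontal cortex was higher than lactating mammary gland at 28 and lower at 0 (6.48 %, against 2.2 %). Between the 2 mammary libraries 0 CG cytosines of the window were called by Fisher's exact test, compared with 0.634 % across the genome.

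Clusters 8 to 11 followed each other and varied most, together with cluster 41 near the end of the window. They were named for their range over the tissues other than testis, so their calls are a description. Cluster 8, of 9 cytosines, was at 6.84 % in rumen, 10.6 % in skeletal muscle, 17.4 % in mammary gland parenchyma, 22 % in lactating mammary gland, 24.6 % in abomasum, 35.7 % in uterus, 64.9 % in frontal cortex, 69.0 % in ileum, 77.6 % in testis and 86.5 % in blood cells. The levels of single cytosines within a tissue spread by a median of 23.7 points, less than the 79.7 points between tissues. Some tissues differed by strand. Abomasum was at 45.5 % on the forward strand (11 reads) and 8.0 % on the reverse (9 to 10 reads). Frontal cortex was at 53.3 and 74.7 %, and lactating mammary gland at 11.8 and 32.4 %. All 9 of its cytosines were called between rumen and blood cells, a pair with 3.38 % called across the genome.

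Cluster 9, of 6 cytosines that all lie on the reverse strand, was at 21.4 % in rumen, 34.1 % in lactating mammary gland, 36.6 % in testis, 46.2 % in skeletal muscle, 63.9 % in mammary gland parenchyma, 74.4 % in uterus, 75 % in abomasum, 75.9 % in ileum, 89.6 % in blood cells and 90.9 % in frontal cortex. Rumen was lowest here as in cluster 8, although testis had moved to the lower end. On the forward strand of the same stretch, not covered in frontal cortex, skeletal muscle was lowest with 11.1 % at 9 reads, followed by rumen with 28.4 %, and blood cells were highest with 98.3 %. All 6 cytosines were called between rumen and frontal cortex, with 0.887 % called across the genome.

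Cluster 10, of 6 forward-strand cytosines, was at 2.44 % in blood cells, 19.4 % in mammary gland parenchyma, 19.6 % in rumen, 19.7 % in uterus, 23.4 % in abomasum, 26.7 % in lactating mammary gland, 36.4 % in ileum, 60.1 % in skeletal muscle, 60.2 % in testis and 66.7 % in frontal cortex. Blood cells, highest in cluster 8, were lowest in cluster 10, which lies 52.0 kb further along. All 6 cytosines were called between blood cells and frontal cortex, with 4.0 % called across the genome.

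Cluster 11, of 10 cytosines, was at 17.9 % in lactating mammary gland, 20.8 % in mammary gland parenchyma, 44.0 % in skeletal muscle, 45.6 % in abomasum, 48.0 % in uterus, 52.4 % in blood cells, 53.1 % in ileum, 59.2 % in rumen, 71.9 % in frontal cortex and 76.9 % in testis. The level fell within the cluster. Its first cytosine, 49726310, was at 41.5 to 100 % over the tissues, while the last, 49726355, was at 3.57 to 65.5 %, and the spread within a tissue had a median of 59.5 points. Both mammary libraries were at the low end of this cluster, and all 10 cytosines were called higher in testis than in either of them, with 1.16 % (lactating) and 0.947 % (parenchyma) called so across the genome.

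Some CG cytosines of the next cluster had also been measured by the study with bisulphite PCR, in testis, frontal cortex, ileum and rumen only. Those PCR levels were not compared here. Cluster 41 held 11 cytosines. It was at 35 % in lactating mammary gland, 47.1 % in mammary gland parenchyma, 58.5 % in rumen, 65.7 % in uterus, 68.4 % in abomasum, 68.9 % in frontal cortex, 69.9 % in ileum, 76.4 % in skeletal muscle, 87.3 % in testis and 90.9 % in blood cells. The mammary libraries were again lowest, and all 11 cytosines were called between blood cells and lactating mammary gland, with 3.56 % called across the genome.

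**Figure D4:**
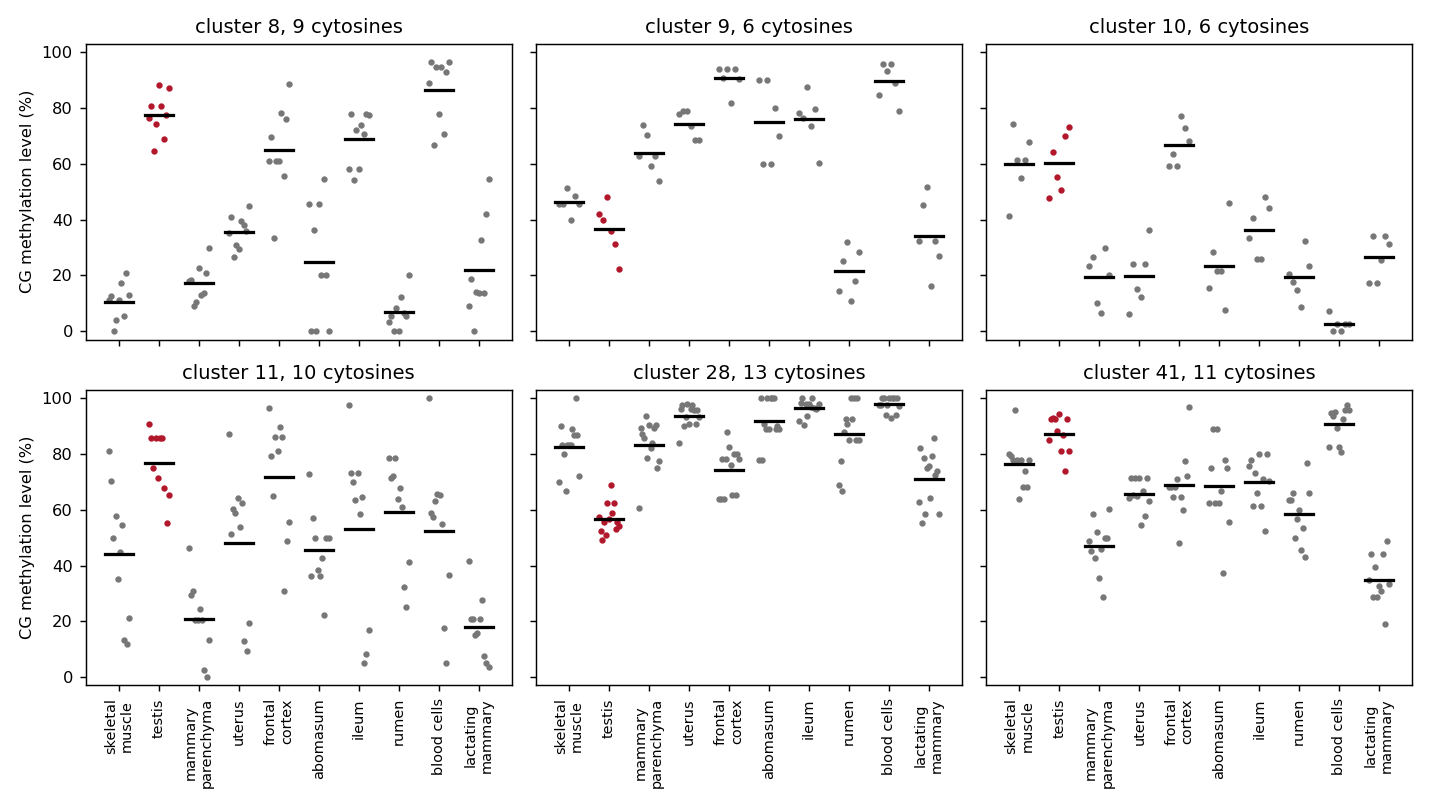
CG methylation level (%) of single cytosines covered in all 10 tissues (dots, testis in red) in clusters 8, 9, 10, 11, 28 and 41, with the mean of each tissue as a bar, 1 library per tissue. The order of the tissues changes between neighbouring clusters, blood cells being highest in cluster 8 (86.5 %) and lowest in cluster 10 (2.44 %), and testis is lowest in cluster 28 (56.7 %).

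Testis holds germ cells beside body cells, and in bulk their shares were not measured. At the 432 CG cytosines covered in every tissue, the mean level was 35.8 % in testis and 34.5 % ± 2.95 (SD, n = 9) in the others, a difference of 1.30 points (exact permutation test of 1 against 9, p = 0.7, where 0.1 is the smallest possible). Elsewhere on the autosomes testis was at 24.0 % and the others at 28.6 % ± 1.51, and testis was the lowest of the 10 (p = 0.1, exact permutation test, the smallest possible). Weighted by reads, testis in the window was 1.55 points below the others (p = 0.9, exact permutation test).

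Compared with single tissues, testis was called higher at more cytosines of the window than lower in 5 of 9 pairs, whereas across the genome the lower calls outnumbered the higher ones in 9 of 9 pairs. In the window testis was higher than lactating mammary gland at 33 cytosines and lower at 2, that is 7.64 and 0.463 %, compared with 1.16 and 6.48 % across the genome. Against mammary gland parenchyma the counts were again 33 and 2, compared with 0.947 and 5.66 %. Against rumen they were 20 higher and 6 lower (0.649 and 3.37 % across the genome), and against skeletal muscle 16 and 2 (0.67 and 4.23 %). Abomasum gave 4 higher and 0 lower (0.149 and 2.79 %). The lower calls prevailed against blood cells, with 11 higher and 24 lower (0.589 and 9.63 %), ileum with 3 and 20 (0.281 and 6.65 %), frontal cortex with 2 and 11 (0.557 and 2.69 %) and uterus with 12 and 15 (0.306 and 5.7 %). Most of these calls came from a few short clusters. Of the 33 higher than lactating mammary gland, 11 lay in cluster 41, 10 in cluster 11 and 6 in cluster 8. Against mammary gland parenchyma these clusters held 8, 10 and 6. Of the 20 lower than ileum, 13 lay in cluster 28 and 6 in cluster 9. The 9 pairs share the testis library and neighbouring cytosines share reads, so the difference in direction between window and genome was not tested.

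**Figure D5:**
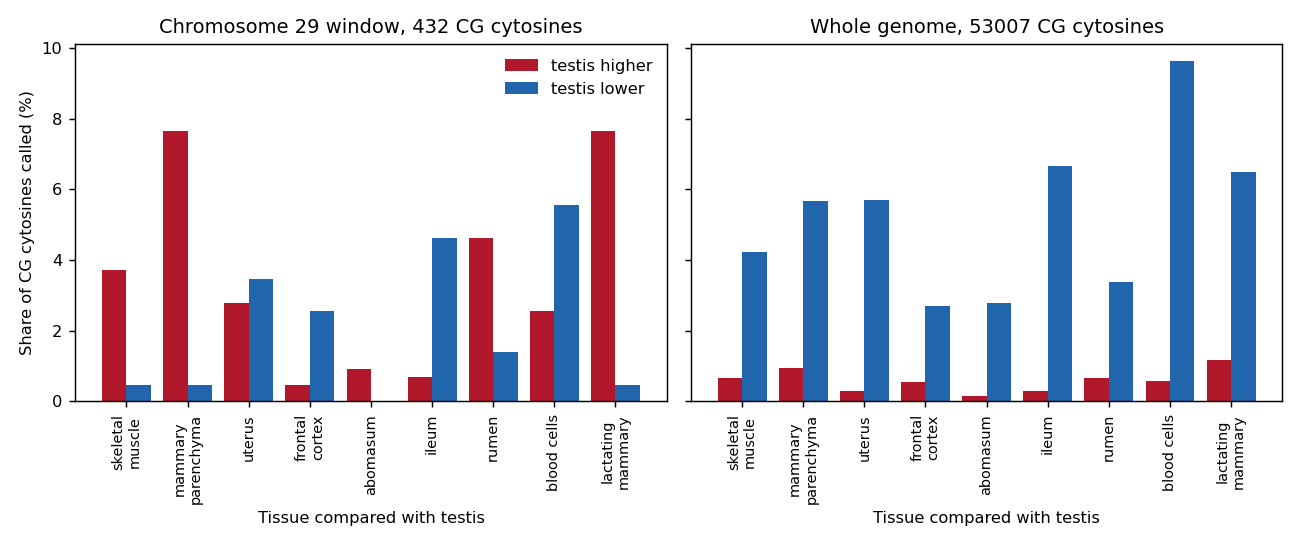
Share (%) of the CG cytosines covered in all 10 tissues that were called higher (red) or lower (blue) in testis than in each other tissue, in the chromosome 29 window (left) and the whole genome (right). Across the genome lower calls prevail in every pair, while in the window higher calls prevail against skeletal muscle, both mammary libraries, abomasum and rumen.

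No CG cytosine of the window was called different in testis from all 9 other tissues. With Fisher's exact test and adjustment, the count was 0 of 432 in each direction, and at an unadjusted p below 0.05 in all 9 pairs it was 2 higher and 0 lower, compared with 0.145 and 4.91 % at the same p across the genome. After adjustment, across the genome 0.0151 % were testis-specific and higher, and 0.54 % testis-specific and lower. The most pairs with testis higher at 1 cytosine of the window was 6, at 49726348 and 49726349, the strands of a single CG of cluster 11. At 49726348 testis was at 67.9 %, and the others were at 2.44 % in mammary gland parenchyma, 4.88 % in ileum, 7.55 % in lactating mammary gland, 12.8 % in uterus, 13.2 % in skeletal muscle, 17.8 % in blood cells, 22.2 % in abomasum, 31.0 % in frontal cortex and 32.1 % in rumen. For the other tissues the 0 calls of the same kind in the window stand beside at most 0.0717 % across the genome, found for lower levels in blood cells.

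Among the clusters, testis was lowest by the widest margin in cluster 28. Its 13 cytosines were at 56.7 % in testis, 71.0 % in lactating mammary gland, 74.1 % in frontal cortex, 82.7 % in skeletal muscle, 83.3 % in mammary gland parenchyma, 87.1 % in rumen, 91.7 % in abomasum, 93.8 % in uterus, 96.5 % in ileum and 97.8 % in blood cells. The difference of testis from the nearest tissue was -14.2 points. Its cytosines were at 49 to 68.9 %, on both strands, and 13 of 13 were called lower than in ileum (6.65 % across the genome), 12 than in uterus (5.7 %) and 12 than in blood cells (9.63 %). Fewer were called lower than in rumen (4, against 3.37 %), skeletal muscle (1, against 4.23 %) and mammary gland parenchyma (1, against 5.66 %). In abomasum (2.79 %), at a median of 9 reads, frontal cortex (2.69 %) and lactating mammary gland (6.48 %) the count was 0. The cluster was picked for its low testis level, so these calls are a description.

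Without a test, testis was at least 25 points outside the range of the other tissues at 12 of 856 CG cytosines that were covered in testis and at least 7 others. It was above at 6 (0.701 %, compared with 0.252 % elsewhere on the autosomes) and below at 6 (0.701 %, compared with 2.37 %). These 12 were picked by their values, and 9 of them lay in a pair of short segments.

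In the segment from 50543157 to 50543184 the departure was seen on the reverse strand. The 4 reverse-strand cytosines were at 38.5 to 53.3 % in testis, at 13 to 15 reads, and at 86.4 % or more in the other tissues, with means of 47.9 % in testis, 89.3 % in uterus, 93.5 % in frontal cortex, 94.4 % in skeletal muscle, 95.0 % in lactating mammary gland, 98.1 % in rumen, 98.5 % in mammary gland parenchyma, 99.2 % in blood cells and 100 % in ileum. On the forward strand of the same stretch, which has its own reads, testis was at 95.5 % and the others at 90.5 to 98.4 %. Thus testis was low on the reverse strand only among the covered cytosines, at 11 reads on the forward strand.

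In the segment from 51260484 to 51260510, whose sequence the files give only in part, 5 reverse-strand cytosines were at 45.8 to 50 % in testis, at 24 reads each. The means of the others were 1.23 % in rumen, 1.94 % in lactating mammary gland, 2.22 % in blood cells, 3.85 % in ileum, 4.36 % in frontal cortex, 5.65 % in uterus, 6.32 % in mammary gland parenchyma and 8.17 % in skeletal muscle, and abomasum had 0 % at its single covered cytosine. No forward-strand cytosine was covered in at least 7 tissues there.

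A difference between the strands of a CG was more common in the testis library than in the others, in the window and elsewhere. In testis, 96 of 456 CG pairs with both strands covered (21.1 %) differed by more than 25 points, compared with 1.48 % in ileum to 6.85 % in abomasum. Elsewhere on the autosomes the share was 19.7 % in testis and 2.79 to 10.1 % in the other tissues. At 20 reads or more on both strands it was 6.22 % of 193 in testis and 0 to 1.69 % in the other 8 tissues with such pairs, while elsewhere it was 8.33 % in testis, 15.4 % in abomasum and 1.55 to 2.90 % in the others. The part of this in the testis departures on 1 strand was not tested.

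Outside CG, the measured levels of the window were low. The paper cautions that incomplete bisulphite conversion could make its non-CG levels too high. Unconverted cytosines were not separated from methylated ones here, and their part in these levels was not tested. The mean level of CHG and CHH cytosines was 1.45 % ± 0.264 in the window and 1.34 % ± 0.202 elsewhere, so that 8 of 10 tissues had more in the window, by 0.105 ± 0.110 points on average (exact sign-flip test over tissues, p = 0.0195, adjusted p = 0.0195). It was -0.377 points when weighted by reads (p = 0.00195, exact sign-flip test), and thus turned its direction. Of 791 non-CG cytosines covered in every tissue, 3 were DMCs, while 0.551 % were across the genome.

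Some 13 of the 791 non-CG cytosines had a mean level of 20 % or more (1.64 %, compared with 1.03 % elsewhere on the autosomes), and the others had a mean of 0.658 %. All 13 were on the forward strand, and 12 of them were above 80 % in at least 9 tissues. Of these 12, 11 lay from 1 to 6 bases before a CCGG. The 5 highest were 51097471 (mean 99.5 %), 50849398 (98.4 %), 51406571 and 51406575 (98.3 % each) and 50487770 (98.2 %). The remaining one, a CHH cytosine at 50646168 within cluster 19, behaved differently. It was the 1 non-CG cytosine of 791 called lower in testis than in all 9 other tissues, compared with 0.00403 % across the genome, and 0 were called higher. Testis had 0 methylated reads of 58 (95 % Wilson interval 0 to 6.21 %), and the other tissues were at 34.0 % in uterus, 35.8 % in blood cells, 38.2 % in lactating mammary gland, 38.5 % in mammary gland parenchyma, 38.6 % in skeletal muscle, 44.4 % in abomasum, 52.1 % in rumen, 52.8 % in ileum and 53.1 % in frontal cortex. As at 49679534, testis was near 0 and most other tissues near the middle, at a single cytosine, and this site too was chosen after its values were seen.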

How the data were processed

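RRBS had been done on 1 library from each of 10 bovine tissues. Reads were mapped to UMD3.1 by the authors with a SOAPaligner pipeline. They kept uniquely mapped reads and deposited, for each cytosine with at least 8 reads, a raw read count and a methylation level as a fraction. The fraction times the count lay within 1e-06 of a whole number for all cytosines and gave the methylated reads. Counts appeared capped at 65535, while the highest in the window was 233. Columns with the authors' p-values were not used.

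Levels were averaged without weighting. Pairs of libraries were compared by Fisher's exact test over 152300 cytosines covered in all 10 tissues, with p adjusted within a pair after Benjamini and Hochberg, and differences within tissues by exact sign-flip permutation. Calling was tested on simulated data. Python 3.11.15, NumPy 2.4.6, pandas 2.3.3, SciPy 1.17.1, Numba 0.67.0 and matplotlib 3.10.9 were used, with a seed of 1.

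Clusters named were the 5 with the widest range over the tissues other than testis, those with the lowest and highest mean, and the one with bisulphite PCR sites. Non-CG cytosines named were the 5 with the highest mean of at least 20 %. The other sites and segments named were chosen after their values were seen. The window, lists and rules were chosen with earlier results of these data known. ARS-UCD2.0 gene records gave gene names and order only. Alternatives were other coverage minimums, weights, references, ranges and thresholds, thinned reads, and leaving out testis or abomasum.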

Additional observations from a re-analysis of the deposited data

How the results depend on the processing

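No paired analysis was possible because each tissue had 1 library and the labels carry no replicate numbers. The higher CG level of the window (16.3 points) was 15.6 points at a minimum of 10 reads, 10.1 points at 20 reads (p = 0.113, exact sign-flip test), 2.05 points when weighted by reads and -2.80 points against the last 2.6 Mb of the other autosomes. The share of cytosines at 30 to 70 % (2.70 points higher) was 0.802 points higher at 20 reads, 0.952 at cytosines covered in every tissue, 1.32 against the other chromosome ends and -2.82 against the rest of chromosome 29. The non-CG difference (0.105 points) was 0.0784 at 10 reads, 0.0768 at 20 reads, -0.0476 against the rest of chromosome 29 and -0.377 weighted by reads, but 0.784 at cytosines covered in every tissue (higher in 10 of 10). The difference of testis in mean CG level (1.30 points) was -1.55 points weighted by reads. Without abomasum these differences were, in the same order, 16.25, 2.52, 0.129 and 1.35 points. Of 1223 cytosines tested in the window, CG and non-CG together, 102 were DMCs. The count was 5 of 37 at 20 reads and 181 of 2589 without abomasum, where the number of cytosines tested changed, and 4 when reads were thinned to the lowest coverage at each cytosine. Without abomasum, an alternative chosen after seeing the data, the clusters numbered 70 in place of 42 and those neither low nor high in every tissue 33 in place of 18. Testis-specific CG cytosines and runs of intermediate cytosines were 0 in every alternative run. A threshold of 40 points and runs of at least 8 cytosines could only give 0, as the main counts were 0. At 20 reads 21 CG cytosines were tested for testis, and thinned reads left few calls of any kind, so these alternatives could show little. Apart from the number of cytosines tested, the causes were not tested. Coverage of 9 reads at the median in abomasum and 16 in testis limits single sites most.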

Other observations

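Near the start of the window a high and a low stretch lay side by side. Cluster 2, at 49202457 to 49202502, was at 0.833 to 2.99 % in every tissue, and cluster 3, at 49215171 to 49215218, was at 98.6 % in mammary gland parenchyma, at 95.0 to 98.5 % in 8 other tissues and at 87.7 % in testis. Clusters 21 and 22 lay closer still, at 50700549 to 50700588 and 50702531 to 50702565, with 0 to 1.84 % in the former and 87.3 to 97.9 % in the latter. Frontal cortex was highest in cluster 33 with 62.3 %, where mammary gland parenchyma was lowest with 16.0 %, and again highest in cluster 39 with 66.9 %, where mammary gland parenchyma had 15.2 %. Blood cells were lowest in cluster 6, with 70 % at a median of 15 reads, where the other tissues had 93.5 to 100 %. Of its 6 cytosines 1 was a DMC, called between blood cells and rumen. Frontal cortex was lowest in cluster 36, with 61.9 % at a median of 12 reads, where the others had 79.0 to 91.7 %. That cluster held 0 DMCs, so neither low level was called against most other tissues.

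Cytosines of the window covered in abomasum alone or in testis alone had higher levels than the other CG cytosines of the same library. The 1318 cytosines covered in abomasum alone had a mean level of 59.7 %, and the other CG cytosines of that library 41.5 %. The 1086 covered in testis alone had 56.6 %, and the others of that library 43.0 %. Elsewhere on the autosomes the corresponding levels were 37.1 and 37.2 % in abomasum and 45.2 and 26.4 % in testis.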
